A study of Mus musculus with 74 samples.

Results

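Zinc finger genes with a Zfp symbol form one of the largest groups of DNA-binding proteins in the mouse. Here they are the genes named Zfp followed by a number, except *Zfp36*, whose product binds RNA through another type of finger. A gene was chosen by its level: its brightest probe had to have a mean log2 intensity above 7.5 in 1 or more of 37 conditions. Of 302 such genes with a probe, 166 reached this level and 136 did not. The series holds 13817 expressed genes, and 9044 of them reached the same level.

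Naive CD4+ T cells (CD62L-high, sorted with magnets) came from Balb/c mice, 5 to 8 weeks of age, whose spleens and lymph nodes had been pooled. They were measured at 0 h on 2 Illumina Mouse Sentrix-6 bead arrays. All other cells were activated with anti-CD3 and anti-CD28 and measured at 3, 6, 12, 24, 35, 48, 73, 96, and 120 h. Th0 cells received antibodies against IFN-γ, IL-4, and IL-12, Th1 cells IL-12 and anti-IL-4, Th2 cells IL-4, anti-IL-12, and anti-IFN-γ, and Th1/2 hybrid cells the cytokines IL-12 and IL-4 together. Each of the 37 conditions has 2 arrays, 1 from each of 2 independent experiments, which gives 74 arrays of cell populations and no measurement of single cells.

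Most Zfp proteins are transcription factors with arrays of C2H2 fingers, each of which contacts a few bases of DNA. Many of them also carry a KRAB domain, which recruits TRIM28, and through it the histone methyltransferase SETDB1 and HP1 proteins, so that the bound locus is silenced. This system is best known for the silencing of retroelements and for genomic imprinting. Others, such as the ribosome-associated and RNA-binding members, act outside transcription.

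All values below are intensities on the log2 scale, and all differences are differences of log2 levels, so a difference of 1 is a 2-fold change. Early means 3, 6, and 12 h (24 arrays), middle 24 and 35 h (16 arrays), and late 48 to 120 h (32 arrays, 8 per cell type). Differences were tested in limma, and a gene was called when its Benjamini-Hochberg adjusted p, taken over the 13817 expressed genes, was below 0.05. Each cell type's 8 late arrays stem from only 2 experiments and entered the fit as 8 separate samples. If an experiment stays high or low over time, the late SE and p come out too small. Comparisons over time pool the cell types, whose arrays of the same experiment and time deviated together (below). Their SE and p may likewise be too small.

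Of 6 T-cell markers, *Cd3e*, *Cd3g*, and *Cd3d* had means between 13.85 and 15.12 in naive and in late cells, *Cd28* lay at 11.37 and *Cd4* at 9.56 at 0 h, and *Cd5* was near background (6.87). Their summed linear intensity was 82770 to 97499 at 0 h, 34434 to 45590 in the middle phase, and 37323 to 72745 late. The CD8 chain gene *Cd8a* was at background (6.39 at 0 h), while the probe of *Cd8b1* was bright at 0 h (12.02) and late (12.13). The median sums of the erythroid, myeloid, and B-cell markers were lower late than at 0 h, though not every gene fell. *Cd79b*, the brightest B-cell marker, had means of 9.60 at 0 h and 7.95 late, and *Ms4a1* 7.13 and 6.67. *Pax5* (6.39 and 6.51) and the myeloid marker *Itgam* (6.43 and 6.45) were near background and did not fall. The summed linear intensity of the 2 measured of 4 erythroid markers was 3163 to 4896 on the naive arrays and 164 to 280 on the late arrays, that of 4 of 5 myeloid markers 1169 to 1774 and 341 to 391, and that of 3 of 5 B-cell markers 833 to 1205 and 339 to 846. In late cells, the B-cell sum was 397 to 846 in Th2 cells and 469 to 662 in Th1/2 cells, against 339 to 426 in Th0 and Th1 cells, and that of 4 NK markers was 356 to 381 at 0 h and 350 to 395 late. The erythroid, myeloid, B-cell, and T-cell sums thus moved with the comparisons against 0 h, and the B-cell sum also with IL-4. Their part in the differences of the Zfp genes was not tested. In such bulk samples, fewer cells of a type and less RNA per cell cannot be told apart. Of all arrays after 0 h, Th0 cells at 96 h in experiment 2 (720 genes, 5 Zfp genes among them) and Th1/2 cells at 12 h in experiment 1 (405 genes, 3 Zfp genes among them) departed at least 2-fold from the other cell types of the same time and experiment for the most genes. Without both arrays, all 92 differences named below kept their direction and their call.

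The chosen Zfp genes had means over all arrays between 6.99 and 12.07, with a median of 8.52, a level that follows from the rule. Of the 166 genes, 107 exceeded 7.5 in all 37 conditions and 59 only in some. The latter had to vary, because the level that chose them was reached in some conditions and missed in others. Differences of such genes are a description where they set those conditions against the rest. Among the genes described below, these are *Zfp599* (above 7.5 in 3 conditions), *Zfp658* (6), *Zfp768* (7), *Zfp948* (10), *Zfp473* (17), *Zfp428* and *Zfp629* (19 each), and *Zfp52* (21). Also among them are *Zfp202*, *Zfp593*, and *Zfp608* (22 each), *Zfp367* (24), *Zfp296* (25), *Zfp30* and *Zfp41* (29 each), *Zfp239* (30), *Zfp365* and *Zfp827* (33 each), and *Zfp933* (34). Just inside the limit were *Zfp846*, *Zfp444*, and *Zfp61* (each less than 0.01 above 7.5 in the highest condition), and just outside *Zfp764* (7.49), *Zfp606* (7.46), and *Zfp142* (7.44).

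The brightest was *Zfp131*, a BTB zinc finger factor, at 12.02 and 12.20 on the 2 naive arrays. Its arrays ranged from 12.35 to 13.01 early and from 11.02 to 12.31 late, so it was higher early on every array. *Zfp639* (mean 11.70) was nearly flat, with all arrays after 0 h between 11.38 and 12.05. It was followed by *Zfp292* (11.54), *Zfp263*, and *Zfp330* (both 11.50). Levels of different genes come from different probes and are not compared further.

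More Zfp genes lay below than above their 0 h level at every time, though not in steady steps. Averaged over the 4 cell types, 94 of 166 were below at 3 h, but 84 (50.6%) by 12 h. The number was 102 at 24 h, then 112 at 48 h and 109 at 96 h. By 120 h it reached 121 genes, which made up 72.9% of the group against 48.7% of all expressed genes. The median difference from 0 h was −0.08 at 3 h, then −0.04 (12 h), −0.27 (48 h), −0.17 (96 h), and −0.29 (120 h), while that of all genes did not exceed 0.04 at any time. For 103 Zfp genes (62.0%, all genes 43.3%) the time point farthest from 0 h was a fall. All comparisons with 0 h rest on the same 2 naive arrays.

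**Figure D1:**
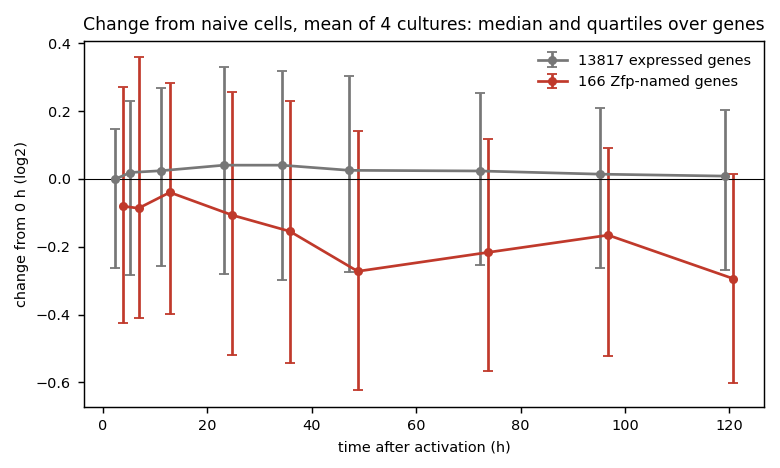
Difference from naive cells at 0 h (log2, mean of Th0, Th1, Th2, and Th1/2 cells) against time after activation in hours, for the 166 Zfp genes (red) and all 13817 expressed genes (grey); points are medians over genes and bars span the quartiles. The median of the Zfp genes is −0.04 (12 h), −0.27 (48 h), −0.17 (96 h), and −0.29 (120 h), and that of all genes stays near 0.

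Early, 36 Zfp genes were higher and 46 lower than at 0 h, that is 21.7% and 27.7% of the group, where 20.8% of all genes tested were higher and 22.6% lower. Of the 9044 genes that reached the same level of 7.5, 29.6% were higher and 31.4% lower, so that the Zfp genes had the smaller share in both directions. In the middle phase, 38 were higher (22.9%, all genes 27.0%, genes of the same level 37.04%) and 66 lower (39.8%, all genes 24.8%, genes of the same level 33.3%). Late, 22 were higher (13.3%, all genes 22.8%, genes of the same level 31.7%) and 72 lower (43.4%, all genes 23.3%, genes of the same level 31.3%). These shares describe genes that were selected on their level, and the difference between the groups of genes was not tested. The median late difference was −0.24 (all genes 0.02), and 10 Zfp genes were lower by at least 2-fold (6.02%, all genes 5.86%).

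From the middle to the late phase, 48 Zfp genes rose (28.9%, all genes 28.3%, genes of the same level 38.4%) and 77 fell (46.4%, all genes 31.8%, genes of the same level 41.8%). Over the 3 phases, the most frequent course was a fall in each of them (28 genes, 16.9%, all genes 12.8%), followed by no call in any phase (23 genes, 13.9%, all genes 33.8%) and by a fall that began in the middle phase and lasted (20 genes, 12.0%, all genes 4.75%). A gene was called kinetic in a cell type if it passed limma's F-test over time and stayed 2-fold or more above, or below, 0 h at 2 successive times. By this measure 53 Zfp genes (31.9%) changed in 1 or more cell types, against a background of 33.4%. There were 38 to 47 per cell type (22.9% to 28.3%, all genes 26.4% to 28.9%), and 32 genes were kinetic in all 4 (19.3%, all genes 22.5%).

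**Figure D2:**
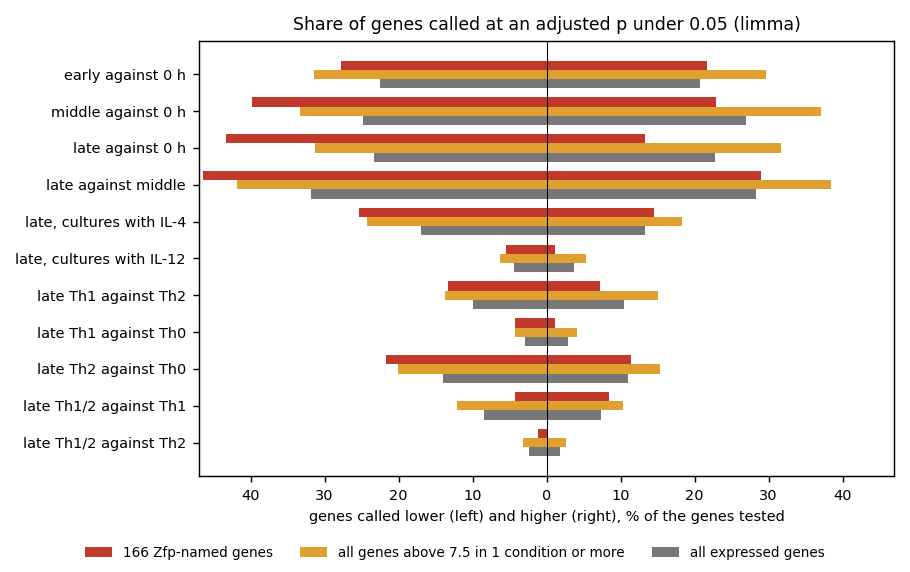
Percentage of genes called lower (left) and higher (right) in limma for 11 comparisons, among the 166 Zfp genes (red), the genes above 7.5 in at least 1 condition (orange), and all expressed genes (grey). The late fall against 0 h is the comparison with 43.4% of Zfp genes lower and 13.3% higher.

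The strongest early rise was that of *Zfp52*. It was at 6.99 on both naive arrays, near the median of all values on the arrays (6.77), and its early arrays ranged from 7.36 to 9.59 with a median of 8.84. The difference was 1.66 (SE 0.25, adjusted p = 4.20e-07), and no early array overlapped the naive ones. It peaked at 6 and 12 h and was back at 6.50 to 7.82 late. A low level compresses such differences, because a probe near background cannot fall much further. With the mean of all expressed probes of *Zfp52* the early difference was 0.92.

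*Zfp296*, known from pluripotent stem cells, was at 6.82 and 6.74 at 0 h and at 7.35 to 8.77 early. It rose by 1.49 (SE 0.15, adjusted p = 2.02e-11), without overlap, and kept a difference of 0.82 late (SE 0.15, adjusted p = 7.45e-06). *Zfp202*, whose human counterpart is a KRAB repressor, was at 7.45 and 7.24 at 0 h, at 8.20 to 9.36 early, and at 6.66 to 7.69 late. It was thus clearly above the naive level early (difference 1.41, SE 0.12, adjusted p = 2.04e-13), and its late arrays spanned that level. *Zfp281*, which binds GC-rich promoters and acts in pluripotency, rose from 10.90 and 11.27 to between 11.64 and 13.05 (difference 1.19, SE 0.17, adjusted p = 8.42e-08). Its rise was over by the middle phase (10.71 to 11.31).

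Other genes dropped within the same hours. *Zfp362* fell from 12.43 and 12.50 to between 10.15 and 11.69 (difference −1.49, SE 0.10, adjusted p = 4.19e-16). It recovered later to a median of 11.87, still 0.72 below naive cells (SE 0.10, adjusted p = 6.17e-08). *Zfp810* went from a mean of 9.09 on the naive arrays to between 7.44 and 8.41 (difference −1.25, SE 0.12, adjusted p = 8.09e-12). *Zfp579* went from 10.48 and 10.35 to between 8.71 and 9.60 (difference −1.21, SE 0.13, adjusted p = 6.52e-11). In none of these genes did the early arrays reach the naive ones. *Zfp658* fell by 1.25 on its brightest probe (SE 0.11, adjusted p = 2.35e-13), but its probes had unlike time courses, and with their mean the difference was −0.75.

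*Zfp292* showed a fall and a return. It was at 12.65 and 12.45 at 0 h, at 10.98 to 12.11 early, at 9.88 to 11.19 in the middle phase, and at 11.01 to 12.48 late. The difference was −1.13 early (SE 0.14, adjusted p = 6.70e-09), −1.60 in the middle phase (SE 0.14, adjusted p = 9.09e-13), and −0.68 late (SE 0.14, adjusted p = 6.96e-05). The lowest value, 9.88, came from Th1 cells at 24 h, where the other experiment gave 11.04. The other probes of *Zfp292* above 7.5 gave late differences of −0.07 and −0.77.

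In the middle phase, when activated T cells divide, *Zfp367* had the largest rise. It was at 6.68 and 7.08 at 0 h and at 6.45 to 7.83 early, which overlap, and at 8.25 to 9.11 in the middle phase, above every earlier array. The difference was 1.69 (SE 0.24, adjusted p = 6.67e-08) and 1.01 with the mean of its probes. *Zfp239*, first described in mouse as Mok-2, rose from 7.70 and 7.27 to between 8.67 and 9.07 (difference 1.39, SE 0.15, adjusted p = 6.31e-11). *Zfp219*, a partner of SOX9 in cartilage, rose from 9.05 and 9.36 to between 9.79 and 10.98 (difference 1.33, SE 0.19, adjusted p = 5.86e-08) and stayed up late (1.42, SE 0.18, adjusted p = 9.67e-09). *Zfp282* rose by 1.34 on its brightest probe (SE 0.15, adjusted p = 2.30e-10), but by 0.54 with the mean of its probes, of which the other had a different course.

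The largest falls in the middle phase were those of *Zfp579* (−1.60, SE 0.13, adjusted p = 2.47e-14), *Zfp292*, *Zfp868*, *Zfp362* (−1.49, SE 0.10, adjusted p = 2.57e-16), and *Zfp212* (−1.42, SE 0.13, adjusted p = 1.94e-12, −0.71 with the mean of its probes). *Zfp868* differed from the others in its timing. It was at 10.23 and 10.17 at 0 h and still at 9.39 to 10.56 early, which overlaps the naive level, but at 8.42 to 8.86 in the middle phase and at 8.25 to 9.41 late. The difference was −0.14 early (SE 0.10, adjusted p = 0.288), −1.56 in the middle phase (SE 0.10, adjusted p = 9.48e-17), and −1.58 late (SE 0.10, adjusted p = 4.12e-17).

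**Figure D3:**
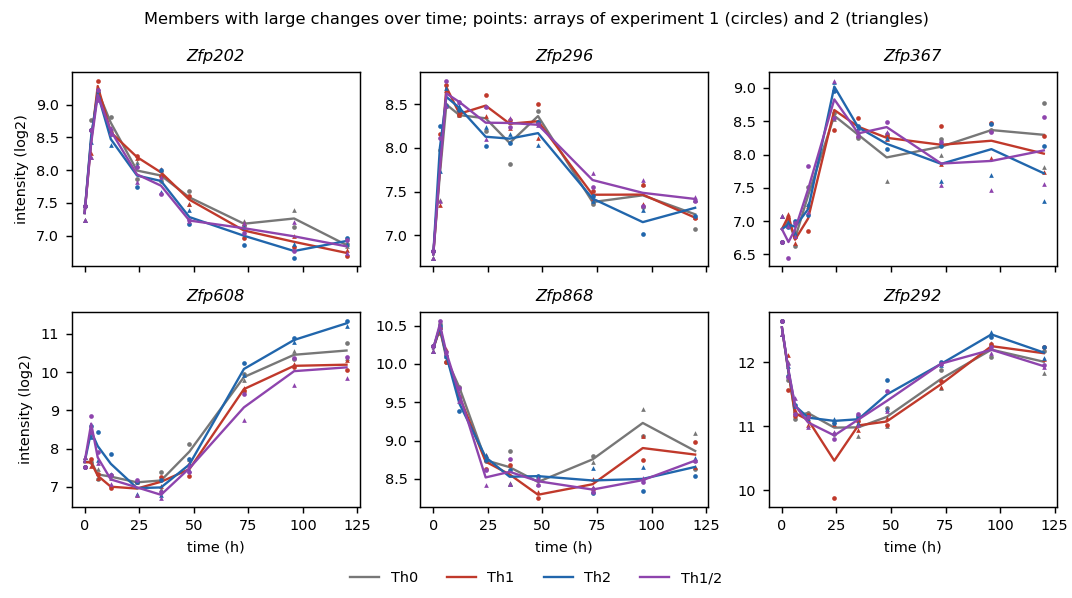
Intensity (log2) against time in hours for 6 Zfp genes with large changes over time in Th0 (grey), Th1 (red), Th2 (blue), and Th1/2 cells (purple); lines join the means of the 2 arrays, circles are experiment 1 and triangles experiment 2. *Zfp202* and *Zfp296* rise first, *Zfp367* rises between 12 and 24 h, *Zfp608* after 48 h, *Zfp868* falls by 24 h, and *Zfp292* falls and returns.

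Late, 5 Zfp genes were at least 2-fold above 0 h (3.01%, all genes 7.56%). *Zfp608*, which represses the recombinase genes Rag1 and Rag2 in mouse thymocytes, had the largest rise. It was at 7.52 and 7.77 at 0 h, at 6.71 to 7.39 in the middle phase, at 7.30 to 8.12 at 48 h, and between 9.84 and 11.34 at 120 h. All arrays at 120 h were above all arrays up to 48 h. Over the late phase the difference from 0 h was 1.90 (SE 0.17, adjusted p = 9.20e-13), and that from the middle phase was 2.53 (SE 0.07, adjusted p = 7.28e-30). With the mean of its probes these were 0.92 and 1.11.

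*Zfp473*, whose human counterpart takes part in the processing of histone mRNA, was at 6.69 and 6.68 at 0 h and at 6.48 to 7.07 early, near background, and at 7.06 to 8.27 late. It rose by 1.22 (SE 0.14, adjusted p = 1.25e-09), and no late array overlapped the naive ones. *Zfp41* rose from 7.85 and 7.63 to between 8.48 and 9.51 (difference 1.15, SE 0.15, adjusted p = 7.25e-09), also without overlap. *Zfp219* and *Zfp367* (1.21, SE 0.23, adjusted p = 2.46e-05) complete the list, and the late difference of *Zfp367* was 0.75 with the mean of its probes.

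The largest late falls after *Zfp868* were those of *Zfp658*, *Zfp236*, *Zfp213*, and *Zfp943*. *Zfp236* went from 11.21 and 11.46 to between 9.67 and 10.39 (difference −1.34, SE 0.11, adjusted p = 1.80e-13). *Zfp213* went from 9.40 and 9.13 to between 7.49 and 8.55 (difference −1.27, SE 0.11, adjusted p = 4.16e-13), and *Zfp943* from 10.85 and 10.64 to between 8.79 and 10.37 (difference −1.25, SE 0.13, adjusted p = 3.43e-11). Every late array of these genes was below both naive arrays. With the mean of all expressed probes, the differences were −0.83 for *Zfp236* and −0.61 for *Zfp943*. The brightest probe of *Zfp658* fell by 1.49 (SE 0.10, adjusted p = 7.94e-16). Its other probes above 7.5 gave late differences of −1.19 and −0.08, so that 1 of 3 probes did not show the fall.

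From the middle to the late phase only *Zfp608*, *Zfp30*, *Zfp428*, and *Zfp770* changed at least 2-fold. They made up 1.20% of the Zfp genes in each direction (all genes 4.49% higher and 3.76% lower). *Zfp30* rose from 6.90 to 7.45 in the middle phase to between 7.43 and 9.27 late (difference 1.14, SE 0.04, adjusted p = 5.58e-25), and the arrays met only at the edge. *Zfp428* fell from between 8.09 and 8.60 to between 6.98 and 7.68 (difference −1.02, SE 0.04, adjusted p = 2.33e-24), and *Zfp770* from between 9.05 and 9.73 to between 7.71 and 9.01 (difference −1.01, SE 0.06, adjusted p = 3.10e-19), both without overlap. With the mean of their probes, *Zfp30* differed by 0.58 and *Zfp428* by −0.55.

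The lists of members with known roles are short, with 2 to 6 measured genes each, and most held genes of both directions or without a call. Their counts stand against the shares of all genes (20.8% higher and 22.6% lower early, 27.0% and 24.8% in the middle phase, 22.8% and 23.3% late) and of the Zfp genes (21.7% and 27.7%, 22.9% and 39.8%, 13.3% and 43.4%), and no list was tested. Of 6 genes listed for ribosomes and translation, 4 reached the level. The nucleolar genes *Zfp593* (difference 1.12, SE 0.14, adjusted p = 2.50e-09) and *Zfp330* (0.61, SE 0.12, adjusted p = 4.07e-05) and *Zfp598*, a ubiquitin ligase that acts on collided ribosomes (0.72, SE 0.14, adjusted p = 3.37e-05), were higher early. *Zfp692*, which also acts in the nucleolus, was lower (−0.88, SE 0.11, adjusted p = 8.72e-09). *Zfp593* was at 7.45 and 7.66 at 0 h, at 8.19 to 9.18 early, and at 6.88 to 7.64 late. Its early arrays were all above and its late arrays all below the higher naive array. Late, only *Zfp330* of these 4 genes was still called (0.35, SE 0.12, adjusted p = 0.0140). Its late difference was 0.58 in experiment 1 and 0.11 in experiment 2.

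Both measured genes of 4 listed for mitosis and the cell cycle were higher in the middle and the late phase. Apart from *Zfp367*, this was *Zfp207*, which binds spindle microtubules. It was at 10.34 and 10.25 at 0 h and at 10.71 to 11.22 in the middle phase (difference 0.64, SE 0.12, adjusted p = 1.28e-05), without overlap. However, the second probe of *Zfp207* had an opposite course (r = −0.434 over the 37 conditions).

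Of 6 measured genes for RNA binding and splicing (7 listed), 4 were lower late, namely *Zfp318* (−0.86, SE 0.12, adjusted p = 4.28e-08), *Zfp638* (−0.80, SE 0.21, adjusted p = 0.00146), *Zfp346*, which binds double-stranded RNA (−0.60, SE 0.20, adjusted p = 0.0101), and the splicing-associated *Zfp326* (−0.28, adjusted p = 0.049), whose other probes differed by 0.16 and 0.15. In experiments 1 and 2 the late differences were −0.06 and −1.14 for *Zfp346* and 0.05 and −0.60 for *Zfp326*. These falls thus lay almost wholly in experiment 2. Those of *Zfp318* (−0.92 and −0.79) and *Zfp638* (−0.46 and −1.14) had the same sign in both. *Zfp106* was higher early (0.93, SE 0.17, adjusted p = 1.09e-05). *Zfp318*, known for the choice between IgM and IgD transcripts in B cells, was at 10.56 and 10.53 at 0 h and at 9.33 to 10.42 late, all of them below. The median sum of the B-cell markers, of which *Cd79b* was the brightest, was also lower in late cells (above).

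Of 6 genes listed for lymphocyte development, 3 were measured. These were *Zfp318*, *Zfp335*, which is required for the maturation of T cells in mice, and *Zfp263*, which is also listed as a promoter-binding factor. All 3 were lower in the middle and late phases, and a role of *Zfp263* in lymphocytes rests on the list alone. *Zfp335* was lower by 0.59 late (difference −0.59, SE 0.13, adjusted p = 2.47e-04), and *Zfp263* by 0.87 (difference −0.87, SE 0.19, adjusted p = 1.83e-04). Among 6 measured partners of chromatin complexes (9 listed), 2 were higher late, *Zfp608* and *Zfp296*, and 2 lower, *Zfp592* (−1.19, SE 0.10, adjusted p = 6.54e-13) and *Zfp644*, a partner of the methyltransferases G9a and GLP (−0.69, SE 0.13, adjusted p = 2.99e-05). *Zfp592*, found together with ZMYND8, went from 10.35 and 10.74 to between 8.97 and 9.75, without overlap.

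Among 6 measured promoter-binding factors (10 listed), 3 were higher early, *Zfp281*, *Zfp131* (0.56, SE 0.12, adjusted p = 1.96e-04), and *Zfp219*. Of the 3 measured ubiquitin and SUMO ligases (4 listed), only *Zfp598* was called against 0 h. Of 6 KRAB genes known for imprinting or retroelement silencing, only *Zfp445* and *Zfp809* reached the level. *Zfp809*, which silences proviruses together with TRIM28, was at 9.26 and 9.16 at 0 h and at 8.15 to 8.99 late (difference −0.67, SE 0.10, adjusted p = 1.87e-07), without overlap. *Zfp445*, a factor of genomic imprinting, was not called late (−0.47, SE 0.34, adjusted p = 0.28).

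Of 17 genes listed as partners through which KRAB proteins act, 13 were measured. Early 7 of them were higher and 3 lower, in the middle phase 9 were higher and 2 lower, and late 5 were higher and 3 lower, where the shares of all genes were 20.8% and 22.6%, 27.0% and 24.8%, and 22.8% and 23.3%. Their median difference was 0.34 early, 0.75 in the middle phase, and 0.08 late (all genes 0.01, 0.04, and 0.02), and it was not tested against that of the Zfp genes. *Trim28* itself was at 11.96 and 11.90 at 0 h and at 12.56 to 13.07 in the middle phase (difference 0.86, SE 0.13, adjusted p = 1.31e-07), without overlap. *Uhrf1* rose from 8.67 and 9.25 to between 13.24 and 14.05 (difference 4.68, SE 0.15, adjusted p = 1.47e-27), *Cbx5*, which encodes HP1α, by 2.03 (SE 0.21, adjusted p = 2.19e-11), and the maintenance methyltransferase gene *Dnmt1* by 1.43 (SE 0.11, adjusted p = 2.10e-15). UHRF1 and DNMT1 also maintain DNA methylation during replication. *Chd3* fell by 2.23 (SE 0.18, adjusted p = 5.49e-14), and *Setdb1* rose by 0.44 (SE 0.17, adjusted p = 0.0265).

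Zfp genes often lie in clusters. By the gene order of RefSeq (GRCm38.p6), which holds all 166 genes under the same symbols, 43 of them are on chromosome 7, and 51 lie in 21 runs of neighbouring members without another protein-coding gene between them. Neighbours did not stand out by like time courses. Over the 37 conditions, the 30 neighbouring pairs had correlations between −0.903 and 0.949 with a median of 0.147, and 23.3% were above 0.5. All 13695 pairs of members had a median of 0.0670, and 23.9% were above 0.5. These correlations share the arrays and the change against 0 h and are given as a description.

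The lowest correlation was that of *Zfp692* and *Zfp672* (−0.903). The pair with the highest correlation and a pair with opposite late calls are shown with their promoters, 300 bases each that end 50 bases after the start of the gene, 5′ to 3′ on the strand of the gene (RefSeq, GRCm38.p6). *Zfp52* (chr17:21535289-21535588, plus strand) and *Zfp948* (chr17:21566728-21567027, plus strand) have the highest correlation (0.949). *Zfp768* (chr7:127345265-127345564, minus strand) and *Zfp747* (chr7:127376001-127376300, minus strand) have a correlation of −0.830 and, of the neighbours called late in opposite directions, the lowest. *Zfp282* and *Zfp212*, *Zfp809* and *Zfp599*, and *Zfp599* and *Zfp810* were also called in opposite directions. The other probe of *Zfp282* differed late by −0.37, which is the direction of *Zfp212*. *Zfp599* exceeded 7.5 in only 3 of 37 conditions. *Zfp658* (chr7:43562120-43562419, plus strand) is shown as a gene that fell on its brightest probe and whose promoter holds the motif of NRF1, a factor of housekeeping promoters. It was picked for both traits, and a link between them was not tested. Capitals mark matches to one of the 12 motifs listed after the sequences.
Zfp52: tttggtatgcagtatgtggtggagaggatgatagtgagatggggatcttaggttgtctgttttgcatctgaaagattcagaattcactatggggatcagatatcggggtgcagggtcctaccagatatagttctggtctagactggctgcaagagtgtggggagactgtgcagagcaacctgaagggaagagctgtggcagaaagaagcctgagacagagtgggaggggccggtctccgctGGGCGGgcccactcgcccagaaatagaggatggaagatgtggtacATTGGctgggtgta
Zfp948: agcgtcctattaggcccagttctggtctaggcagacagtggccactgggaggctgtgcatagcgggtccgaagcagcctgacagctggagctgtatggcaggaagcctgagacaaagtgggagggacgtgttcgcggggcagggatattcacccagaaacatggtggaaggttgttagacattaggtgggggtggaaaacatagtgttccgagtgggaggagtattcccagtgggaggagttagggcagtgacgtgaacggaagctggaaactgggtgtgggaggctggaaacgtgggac
Zfp768: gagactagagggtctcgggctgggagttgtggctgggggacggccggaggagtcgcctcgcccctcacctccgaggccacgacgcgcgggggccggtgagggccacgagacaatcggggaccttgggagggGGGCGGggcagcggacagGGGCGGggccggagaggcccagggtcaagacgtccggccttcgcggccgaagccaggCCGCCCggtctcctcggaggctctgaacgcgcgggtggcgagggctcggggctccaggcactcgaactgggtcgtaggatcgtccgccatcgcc
Zfp747: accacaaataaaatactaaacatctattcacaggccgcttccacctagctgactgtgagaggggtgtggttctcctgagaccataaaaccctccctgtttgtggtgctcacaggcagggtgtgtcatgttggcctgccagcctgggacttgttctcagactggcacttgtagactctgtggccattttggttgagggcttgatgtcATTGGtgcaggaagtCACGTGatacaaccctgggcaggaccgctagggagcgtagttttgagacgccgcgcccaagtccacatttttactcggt
Zfp658: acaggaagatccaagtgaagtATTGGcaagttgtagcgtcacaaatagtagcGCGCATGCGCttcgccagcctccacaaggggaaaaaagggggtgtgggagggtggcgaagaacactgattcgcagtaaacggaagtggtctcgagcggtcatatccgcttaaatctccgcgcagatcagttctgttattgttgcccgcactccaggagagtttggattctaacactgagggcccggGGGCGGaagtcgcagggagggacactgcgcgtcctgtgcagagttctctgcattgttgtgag

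*Zfp948* followed *Zfp52* closely. It was at 6.57 and 6.65 at 0 h, at 6.82 to 8.62 early, and late it had a median of 6.67. The early difference was 1.16 (SE 0.18, adjusted p = 4.32e-07), without overlap. *Zfp948* exceeded 7.5 in 10 of 37 conditions and was chosen through them, and its naive arrays lay below the median of all values (6.77), so that the size of the rise is a description of a dim probe. Its promoter holds none of the motifs, and that of *Zfp52* holds a GC box and a CCAAT box.

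*Zfp768* was at 6.70 and 6.60 at 0 h and at 6.71 to 7.90 late (difference 0.74, SE 0.11, adjusted p = 3.40e-07). *Zfp747* was at 9.74 and 9.54 at 0 h, at 9.37 to 10.36 early, and at 8.11 to 9.24 late. It thus rose early by 0.35 (SE 0.11, adjusted p = 0.00925) and fell late (difference −1.02, SE 0.11, adjusted p = 1.75e-10), and every late array was below the naive arrays. The promoter of *Zfp768* holds 3 GC boxes, and that of *Zfp747* a CCAAT box and an E-box.

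**Figure D4:**
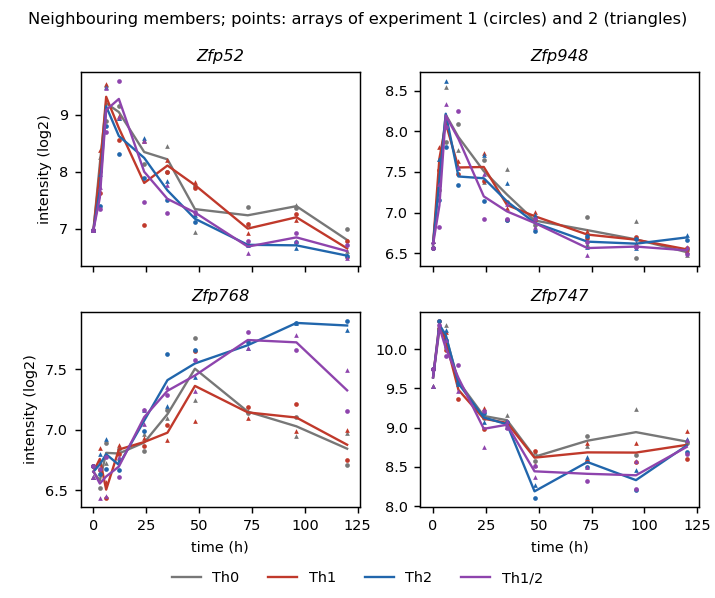
Intensity (log2) against time in hours for the neighbouring genes *Zfp52* and *Zfp948* (upper panels) and *Zfp768* and *Zfp747* (lower panels); colours, lines, and points stand for cell types, means, and experiments as given in the legend and title. The upper pair rises to 6 and 12 h and returns, and in the lower pair *Zfp768* is at 7.66 or more in all Th2 and Th1/2 arrays at 73 and 96 h while *Zfp747* falls to between 8.11 and 9.24 late.

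The promoter table matched 137 of the 166 genes. Their promoters had a median GC content of 58.0% and 18 CG pairs, close to the promoters of expressed genes (59.3% and 18), and above all promoters in the table (52.8% and 7). Motifs were searched on both strands (for E2F also as TTGGCGC), matches could overlap, and a gene was counted if any of its promoters held the motif. The GC box (GGGCGG) was found in 58.4% of Zfp genes, in 61.6% of expressed genes, and in 38.2% of all genes. For CCAAT the shares were 48.2%, 42.8%, and 41.1%, and for the ETS motif (CCGGAAG) 21.2%, 17.1%, and 9.93%.

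The shares for E2F (TTCCCGC) were 18.2% of Zfp genes, 12.6% of expressed genes, and 7.79% of all genes. NRF1 (GCGCATGC) was found in 12 of 137 Zfp promoters (8.76%, expressed genes 5.16%, all genes 3.05%), ZNF143 (ACTACAAT) in 6 (4.38%, 1.08%, and 0.844%), CRE (TGACGTCA) in 8 (5.84%, 3.21%, and 2.03%), and YY1 (AAGATGGC) in 9 (6.57%, 4.59%, and 3.19%). For the factors of Th2 cells the shares were 7.30%, 6.70%, and 8.01% (STAT6, TTCNNNNGAA) and 6.57%, 8.91%, and 12.7% (GATA factors, AGATAA). The TATA box, searched as TATAAA, was found in 8.76%, 10.99%, and 15.7%, and the E-box (CACGTG) in 10.2%, 10.9%, and 8.09%. The shares among genes lower or higher late are not compared, as only 16 matched genes were higher. A match is a description of the sequence and not a binding site.

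Between the cell types, fewer Zfp genes were called than over time. Cells without IL-4 received anti-IL-4, and cells without IL-12 received anti-IL-12 and anti-IFN-γ. In the comparisons with IL-4 and with IL-12, the cytokine and these antibodies therefore cannot be told apart. With IL-4 in the culture (Th2 and Th1/2 cells against Th0 and Th1 cells, late, 16 arrays each), 24 Zfp genes were higher (14.5%, all genes 13.3%, genes of the same level 18.3%) and 42 lower (25.3%, all genes 17.0%, genes of the same level 24.3%). None of them differed 2-fold (all genes 0.934% in each direction). With IL-12 (Th1 and Th1/2 against Th0 and Th2 cells), only 2 were higher (1.20%, all genes 3.70%, genes of the same level 5.26%) and 9 lower (5.42%, all genes 4.38%, genes of the same level 6.29%).

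*Zfp365* had the largest difference with IL-4. Its late arrays lay at 9.09 to 10.35 in Th0 cells (median 9.85), 8.39 to 9.75 in Th1 cells (median 9.10), 7.98 to 9.40 in Th2 cells (median 8.33), and 7.99 to 9.10 in Th1/2 cells (median 8.16). The difference with IL-4 was −0.98 (SE 0.13, adjusted p = 1.01e-07), −1.17 in experiment 1 and −0.80 in experiment 2, and the arrays of the groups overlapped. From 8.69 and 8.64 at 0 h, *Zfp365* was at 7.30 to 7.75 in all cell types at 3 and 6 h and at 8.46 to 9.71 at 35 h. At 73 and 96 h all arrays of Th0 cells were above all others. With the mean of its probes the IL-4 difference was −0.37.

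*Zfp768* had an IL-4 difference of 0.53 (SE 0.05, adjusted p = 8.71e-11). It exceeded 7.5 in 7 of 37 conditions and was thus chosen largely through the late cells in which it is high. This difference is therefore a description, and so are its other late differences between cell types named below. Late it lay at 6.71 to 7.76 in Th0 cells, 6.75 to 7.65 in Th1 cells, 7.44 to 7.90 in Th2 cells, and 7.16 to 7.81 in Th1/2 cells. At 48 h the cell types overlapped (7.08 to 7.76), and at 96 h the lowest array with IL-4 (7.66) was above the highest without (7.21). *Zfp91*, a ubiquitin ligase of the noncanonical NF-κB pathway, was at 9.20 to 10.31 in Th0, 9.74 to 10.16 in Th1, 10.29 to 11.14 in Th2, and 9.97 to 10.70 in Th1/2 cells (IL-4 difference 0.52, SE 0.09, adjusted p = 1.72e-05). The experiments differed here, with 0.39 and 0.66. The low Th0 value of 9.20 is from the array at 96 h in experiment 2 that stood apart.

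*Zfp362* was higher with IL-4 (0.45, SE 0.05, adjusted p = 4.57e-10) and lower with IL-12 (−0.24, SE 0.05, adjusted p = 3.98e-04). Its late medians were 12.12 in Th2, 11.91 in Th0 and in Th1/2, and 11.54 in Th1 cells, and the ranges of the cell types overlapped. At 120 h, Th1 cells had the lowest values in both experiments, as the time courses show. *Zfp281* was lower with IL-4 (−0.40, SE 0.08, adjusted p = 9.94e-05), with late medians of 11.36 in Th0, 11.51 in Th1, 10.77 in Th2, and 11.12 in Th1/2 cells. *Zfp703*, a transcriptional repressor known from breast cancer, was higher with IL-4 (0.40, SE 0.08, adjusted p = 8.31e-05), and its ranges of 7.58 to 8.78 without and 8.01 to 9.62 with IL-4 overlapped.

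The other genes named for IL-4 were *Zfp30* (0.39, SE 0.05, adjusted p = 4.34e-08, 0.22 with the mean of its probes), *Zfp94* (−0.37, SE 0.06, adjusted p = 9.98e-07), *Zfp658* (−0.38, SE 0.05, adjusted p = 5.30e-08), and *Zfp933*. *Zfp658* lay late at 7.02 to 7.71 without and at 6.55 to 7.22 with IL-4, and its difference was −0.19 with the mean of its probes. *Zfp933* (−0.42, SE 0.08, adjusted p = 4.11e-05) was highest in Th0 cells. At 73 h it was at 9.12 and 9.24 and at 96 h at 9.18 and 9.64 in Th0 cells, against 7.79 to 8.43 in the other cell types at these times, without overlap. At 48 h all cell types lay between 7.24 and 7.63. Its late difference from Th0 cells was −0.72 in Th1 cells (SE 0.11, adjusted p = 1.09e-05) and −0.73 in Th2 cells (SE 0.11, adjusted p = 1.85e-06), which share the Th0 arrays. Of the other probes of *Zfp933*, 1 followed the brightest (r = 0.968) and 1 did not (r = −0.114), and the differences were −0.40 and −0.37 with their mean.

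**Figure D5:**
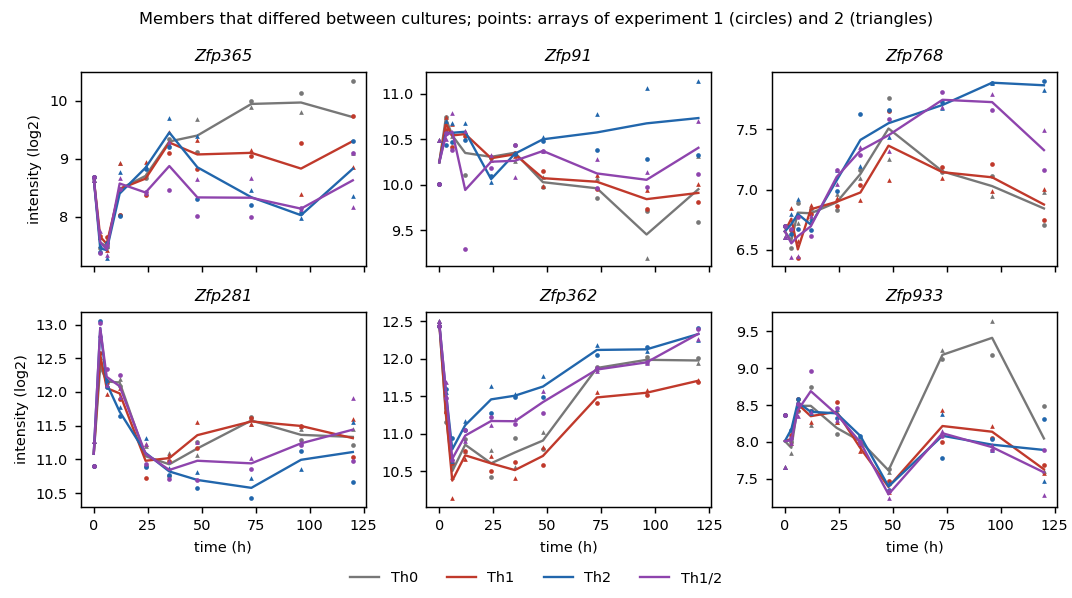
Intensity (log2) against time in hours for 6 Zfp genes that differed between cell types; lines are means of 2 arrays, circles experiment 1 and triangles experiment 2. After 48 h *Zfp365* is highest in Th0 cells, *Zfp91* and *Zfp768* are higher in Th2 cells, *Zfp281* is lower in Th2 cells up to 73 h, *Zfp362* is lowest in Th1 cells, and *Zfp933* is raised in Th0 cells at 73 and 96 h.

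With IL-12 the largest difference was that of *Zfp608* (−0.56, SE 0.08, adjusted p = 1.90e-06, −0.60 and −0.53 in the experiments, −0.32 with the mean of its probes). At 120 h it was at 10.77 and 10.36 in Th0, 10.06 and 10.32 in Th1, 11.34 and 11.22 in Th2, and 10.40 and 9.84 in Th1/2 cells. The Th2 arrays were above all others, and Th0, Th1, and Th1/2 cells overlapped. *Zfp933* (−0.41, SE 0.08, adjusted p = 2.62e-04), *Zfp827* (−0.28, SE 0.06, adjusted p = 0.00144), and *Zfp365* (−0.42, SE 0.13, adjusted p = 0.0448) were also lower. *Zfp809* (0.20, SE 0.05, adjusted p = 0.00295) and *Zfp82* (0.15, SE 0.04, adjusted p = 0.00592) were higher. The call of *Zfp365* was lost in 9 of the alternatives (adjusted p up to 0.184), and that of *Zfp82* without the arrays of experiment 1 in Th1 or in Th1/2 cells and with the mean of its probes (up to 0.101). Without experiment 1 in Th0 cells 5 genes were higher and without experiment 1 in Th1 cells 1 was. The number of lower genes fell to 5 without experiment 1 or experiment 2 in Th1 cells or experiment 1 in Th1/2 cells and to 4 without experiment 2 in Th2 cells. With the experiment as a block within time points, 5 were higher and 24 lower.

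In Th1 against Th2 cells (8 late arrays each), 12 Zfp genes were higher (7.23%, all genes 10.5%, genes of the same level 15.1%) and 22 lower (13.3%, all genes 9.97%, genes of the same level 13.8%). *Zfp362* was lower in Th1 cells by 0.69 (difference −0.69, SE 0.07, adjusted p = 8.76e-11), followed by *Zfp91* (−0.66, SE 0.13, adjusted p = 1.85e-04), *Zfp768* (−0.63, SE 0.08, adjusted p = 1.23e-08), *Zfp827* (−0.63, SE 0.09, adjusted p = 3.14e-07), and *Zfp608* (−0.60, SE 0.12, adjusted p = 9.13e-05). *Zfp91* did not overlap (9.74 to 10.16 in Th1, 10.29 to 11.14 in Th2 cells), but without experiment 2 in Th2 cells its difference was −0.40 and its call was lost (adjusted p = 0.0773). *Zfp827* lay at 7.41 to 8.32 in Th1 and at 7.84 to 9.28 in Th2 cells.

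Higher in Th1 cells were *Zfp281* (0.59, SE 0.11, adjusted p = 9.13e-05, arrays at 11.04 to 11.61 against 10.43 to 11.55), *Zfp365* (0.57, SE 0.19, adjusted p = 0.0275), *Zfp82* (0.42, SE 0.05, adjusted p = 4.42e-08, arrays at 8.34 to 8.88 against 8.06 to 8.51), *Zfp317* (0.31, SE 0.10, adjusted p = 0.0182), and *Zfp597* (0.29, SE 0.09, adjusted p = 0.0213). The arrays of these genes overlapped. The calls of *Zfp317* and *Zfp597* were lost without experiment 1 in Th1 cells or experiment 2 in Th2 cells (adjusted p up to 0.569 and 0.50), and that of *Zfp365* without experiment 1 in Th1 cells or either experiment in Th2 cells and with the mean of its probes (up to 0.273). Genes with a higher level in Th1 cells numbered 7 without experiment 1 in Th1 cells and 5 without experiment 1 in Th2 cells, and lower genes 14 without experiment 2 in Th1 cells and 12 without experiment 1 in Th2 cells. With the block within time points, 28 were higher.

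Against Th0 cells, Th1 cells had 2 Zfp genes higher (1.20%, all genes 2.94%, genes of the same level 4.14%) and 7 lower (4.22%, all genes 2.86%, genes of the same level 4.20%). Th2 cells had 19 higher (11.4%, all genes 11.1%, genes of the same level 15.3%) and 36 lower (21.7%, all genes 14.0%, genes of the same level 20.1%). Both comparisons share the Th0 arrays. In Th1 cells, *Zfp473* (0.34, SE 0.10, adjusted p = 0.0265) and *Zfp82* (0.32, SE 0.05, adjusted p = 3.79e-05) were higher, and *Zfp933*, *Zfp365* (−0.68, SE 0.19, adjusted p = 0.0209), and *Zfp362* (−0.33, SE 0.07, adjusted p = 0.00109) lower. In Th2 cells, *Zfp91* (0.77, SE 0.13, adjusted p = 1.25e-05), *Zfp768* (0.62, SE 0.08, adjusted p = 1.57e-08), and *Zfp629* (0.55, SE 0.08, adjusted p = 1.81e-07) were higher, and *Zfp365* (−1.25, SE 0.19, adjusted p = 1.43e-06), *Zfp933*, and *Zfp281* (−0.51, SE 0.11, adjusted p = 4.71e-04) lower. Among the late comparisons of cell types tested here, *Zfp365* in Th2 against Th0 cells was the only called 2-fold difference (0.602% of the Zfp genes, all genes 1.24%). Th1/2 cells were not tested against Th0 cells. *Zfp629* lay at 7.29 to 7.79 in Th0 and at 7.74 to 8.41 in Th2 cells and overlapped at the edge.

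The small counts depended on single experiments. For Th1 against Th0 cells, 4 genes were higher without experiment 1 in Th0 cells and 1 without experiment 2 in Th1 cells, and 2 were lower without experiment 1 in Th1 cells and 4 without experiment 2. The call of *Zfp473* was lost without either experiment in Th1 cells or experiment 2 in Th0 cells (adjusted p up to 0.419), that of *Zfp365* without experiment 1 in Th0 or experiment 2 in Th1 cells (up to 0.223), and that of *Zfp362* without experiment 1 in Th1 cells (0.0753). With the experiment as a block over all arrays 4 were higher and 11 lower, and with the block within time points 6 and 28. For Th2 against Th0 cells, this block gave 29 higher genes.

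Hybrid Th1/2 cells had few calls against Th2 cells. Against Th1 cells, 14 were higher (8.43%, all genes 7.32%, genes of the same level 10.3%) and 7 lower (4.22%, all genes 8.41%, genes of the same level 12.1%). Against Th2 cells, 0 were higher in limma (all genes 1.79%, genes of the same level 2.59%), where 6 had an unadjusted p below 0.05, and 2 were lower (1.20%, all genes 2.33%, genes of the same level 3.24%). These were *Zfp608* (−0.77, SE 0.12, adjusted p = 8.42e-06, −0.47 with the mean of its probes) and *Zfp827* (−0.29, SE 0.09, adjusted p = 0.0484), and the call of *Zfp827* was lost in 12 of the alternatives (adjusted p up to 0.323). At 96 and 120 h, *Zfp608* lay at 10.80 to 11.34 in Th2 and at 9.67 to 10.40 in Th1/2 cells, without overlap.

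Against Th1 cells, *Zfp362* (0.53, SE 0.07, adjusted p = 8.31e-08), *Zfp30* (0.48, SE 0.07, adjusted p = 1.91e-06), and *Zfp768* (0.44, SE 0.08, adjusted p = 2.29e-05) were higher in Th1/2 cells, and *Zfp365* (−0.72, SE 0.19, adjusted p = 0.00542), *Zfp82* (−0.43, SE 0.05, adjusted p = 2.56e-08), and *Zfp658* (−0.40, SE 0.07, adjusted p = 4.16e-05) lower. The call of *Zfp365* was lost without experiment 1 in Th1 or in Th1/2 cells (adjusted p up to 0.114). Higher genes numbered 8 without either experiment in Th1 cells or experiment 1 in Th1/2 cells, and lower genes 4 without experiment 1 in either of them. With the block within time points, 18 were lower, and against Th2 cells 4 were higher and 9 lower. Without 1 experiment of a single cell type, the counts against Th2 cells ranged from 0 to 1 higher and from 1 to 4 lower genes, and leaving out experiment 1 in Th2 cells or experiment 2 in Th1/2 cells gave 4.

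The change of the IL-4 difference over time was tested as late minus early. It was positive in 13 Zfp genes (7.83%, all genes 8.46%, genes of the same level 12.0%) and negative in 17 (10.2%, all genes 9.38%, genes of the same level 13.5%), which are shares near those of all genes. With the block within time points the counts were 24 and 35. Without experiment 1 in Th1 cells or in Th2 cells 8 were positive, and without experiment 2 in Th0 cells or experiment 1 in Th2 cells 10 and 11 were negative. *Zfp608* had such a change in a particular form: at 3 h it was at 8.59 and 8.30 in Th2 and at 8.86 and 8.44 in Th1/2 cells, against 7.56 to 7.72 in Th0 and Th1 cells, without overlap. At 48 h all cell types lay between 7.30 and 8.12.

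Probes of the same gene agreed in most cases. Of the 166 genes, 102 have several probes, and 60 have a second probe that exceeded 7.5 in at least 1 condition, which gives 74 pairs with the brightest probe. Their correlation over the 37 conditions had a median of 0.866, 58 pairs were above 0.5, and 59 changed in the same direction late. In 5 pairs it was negative, namely those of *Zfp24* (−0.722), *Zfp276* (−0.516), *Zfp207*, *Zfp282* (−0.136), and *Zfp933*. *Zfp276* fell late by 1.16 on the brightest probe (difference −1.16, SE 0.11, adjusted p = 3.16e-12), and its other probe differed by 0.30 in the opposite direction.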

How the data were processed

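The authors deposited 1 table of Illumina bead array intensities for 74 arrays, on a linear scale (55.8 to 69892, array medians 107 to 111). Per the methods, they were background-corrected and quantile-normalized by the authors, with software not given in the sources used here, and replicates were not pooled. Values were taken as log2 with no further normalization. Probes were named by GEO's platform annotation (34773 of 45135 with 1 symbol, 18 with several, 10344 with none), and probes with several symbols named no gene. A probe was expressed if its mean exceeded the median of all values (6.77) in at least 1 condition, and the brightest probe stood for a gene. No detection p was used.

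A cell-means model of 37 conditions was fitted in limma 3.58.1 (R 4.3.3), without a block, over 13817 genes, with Benjamini-Hochberg adjustment and a threshold of 0.05. On simulated data, changes of 0.5 and 1.0 were recovered for 76% and 94% of genes for late against 0 h, with 7.02% of calls on unchanged genes, and for 98% and 100% for IL-4, with 5.26%. The simulated arrays varied independently, and only a small part of the genes changed. Real arrays deviated together (below) and far more genes were called, so these shares need not hold for the data. The median residual SD was 0.18 for Zfp genes. The number of arrays limits the precision. Named genes are the 5 largest called differences per direction for the phases, IL-4, IL-12, and Th1 against Th2, and the 3 largest for the other pairs and for the change of the IL-4 difference, plus the 5 highest levels, genes of the lists and neighbouring pairs. Genes were named beyond this rule after their values were seen where a probe, array, or level stood out.

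Arrays of the same experiment and time deviated together (median r = 0.536 over 54 pairs of cell types, lowest 0.0108, 52 above 0.1), so that the experiment was used as a block in alternatives. Alternatives changed the normalization, the probe, the filter, the variance model, array weights, the block, and the arrays left out. The members and lists were chosen with earlier results of these data known. Proteins were not compared here.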

Additional observations from a re-analysis of the deposited data

Results flagged for a closer look

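For 6 of the named genes, the IL-4 difference changed between the early and the late phase, by limma's test of the difference itself (late minus early, log2, adjusted over all genes). In *Zfp768* it was −0.03 early and 0.53 late, which is a change of 0.56 (SE 0.08, adjusted p = 1.01e-06). *Zfp91* went from −0.10 to 0.52 (change 0.62, SE 0.14, adjusted p = 0.00112), and *Zfp703* from −0.03 to 0.40 (change 0.43, SE 0.12, adjusted p = 0.00863). The last of these was lost in 4 alternatives (adjusted p up to 0.12), namely with the mean of all probes (0.28) and without experiment 1 in Th0 or Th1 cells or experiment 2 in Th2 cells.

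*Zfp365* moved the other way, from −0.06 early to −0.98 late (change −0.93, SE 0.21, adjusted p = 0.000739, −0.35 with the mean of its probes). *Zfp281* turned from 0.13 to −0.40 (change −0.53, SE 0.12, adjusted p = 0.00126). *Zfp608* had its IL-4 difference early, 0.59, and 0.04 late (change −0.55, SE 0.13, adjusted p = 0.000984, −0.21 with the mean of its probes). The changes of *Zfp768*, *Zfp91*, *Zfp365*, *Zfp281*, and *Zfp608* kept their direction and their call under all alternatives run. *Zfp768* is among the chosen genes largely through the late cells in which it is high. The alternatives kept the same chosen genes, so its change is a description under each of them.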

How the results depend on the processing

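Over 1708 recomputed values of 92 named differences, 1663 kept their direction and call, 45 lost the call, and 0 reversed. The count of kinetic genes was 33 with the mean of all probes and 112 at 1.5-fold. With the experiment as a block over all arrays (replicate block), 4 genes were higher and 11 lower in Th1 against Th0 cells, and 1 was higher in Th1/2 against Th2 cells. With the replicate block within time points, the counts were 5 higher and 24 lower with IL-12, 28 higher in Th1 against Th2, 6 higher and 28 lower in Th1 against Th0, 29 higher in Th2 against Th0, 18 lower in Th1/2 against Th1, 4 higher and 9 lower in Th1/2 against Th2, and 24 higher and 35 lower for the change of the IL-4 difference. Where they were run, the blocks changed no other count by over 1.5 times and no call of a named gene. The block within time points was run only for comparisons between cell types, which hold 52 of the 92 named differences. The comparisons over time were not recomputed with it. Without the 2 arrays that stood apart, 4 genes were higher with IL-12, and 4 were higher and 4 lower in Th1 against Th0 cells. Lower in Th1/2 against Th2 cells were 4 genes with the mean of all probes and 1 each with no filter, an intensity trend, or array weights.

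Leaving out 1 experiment of 1 cell type at a time, the counts of higher and lower genes were 25 to 37 and 37 to 48 early, 29 to 38 and 48 to 68 in the middle phase, 15 to 23 and 58 to 74 late, 45 to 50 and 71 to 77 for late against middle, 19 to 25 and 29 to 42 with IL-4, 1 to 5 and 4 to 12 with IL-12, 5 to 13 and 12 to 22 for Th1 against Th2, 1 to 4 and 2 to 10 for Th1 against Th0, 14 to 19 and 25 to 37 for Th2 against Th0, 8 to 14 and 4 to 7 for Th1/2 against Th1, 0 to 1 and 1 to 4 for Th1/2 against Th2, and 8 to 13 and 10 to 18 for the change of the IL-4 difference. Kinetic genes numbered 52 to 60. The cause of these shifts was not tested. Genes near the median of all values (6.77) are limited by their signal over background.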
